A study of Mus musculus with 12 samples.

Results

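Described here are the 8 genes that encode the oxygen-sensing core of the hypoxia-inducible factor (HIF) system, chosen by gene symbol from the 32544 genes of the deposited table. They are Egln2, Egln1 and Egln3, which encode the prolyl hydroxylases PHD1, PHD2 and PHD3, then Hif1a and Epas1, which encode HIF1α and HIF2α, Arnt, which encodes their partner HIF1β, Vhl, and Hif1an, which encodes factor inhibiting HIF (FIH). All 8 were found under these symbols, and all 8 passed the filter on low counts, which kept 14285 genes.

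RNA was sequenced from bone marrow-derived macrophages (BMDMs) and from NIH/3T3 fibroblasts, an established mouse line, in 4 groups of 3 libraries. BMDMs labelled PHD2cko came from mice in which PHD2 was deleted conditionally by LysM-Cre, and BMDMs labelled WT came from mice that also carried LysM-Cre, so that Cre was common to both. LysM-Cre is driven by a myeloid promoter and acts in macrophages and other myeloid cells, and the study describes the knockdown of this model as partial. BMDM RNA was taken 24 h after seeding. The 3T3 fibroblasts were kept for 72 h in medium that BMDMs of either label had conditioned, called WT medium and PHD2cko medium. The sources used here do not give which part of Egln1 was deleted, which oxygen level the sequenced cells had, or whether the replicates came from separate mice or cultures. The p-values therefore measure the spread between these libraries.

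In oxygenated cells, PHD1, PHD2 and PHD3 hydroxylate prolines of the HIFα proteins, using oxygen and 2-oxoglutarate, and the VHL ubiquitin ligase then binds the hydroxylated protein and marks it for degradation. When oxygen or hydroxylase activity is low, HIFα accumulates, pairs with HIF1β and binds the core letters ACGTG or GCGTG near genes for glycolysis, glucose uptake and angiogenesis. The system is thus regulated in large part at the protein level, which RNA sequencing does not measure. PHD2 is the main hydroxylase of HIF1α in most cells, while PHD3, and in many cells PHD2, are themselves induced by HIF.

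The libraries held from 15516465 to 25199770 counts. The summed level of 20 macrophage markers was 44384 to 45591 counts per 1000000 counts (CPM) in WT BMDMs and 39914 to 41406 CPM in those labelled PHD2cko, without overlap. Taken singly, 0 of these 20 markers passed the threshold between the labels in BMDMs. Their log2 differences ran from -0.50 to 0.54, with a median of -0.02. That of 12 fibroblast markers was at least 20827 CPM in 3T3 fibroblasts and 1.81 to 5.77 CPM in BMDMs. Summed markers of neutrophils and of T cells stayed at or below 0.778 and 1.90 CPM in every library, and those of B and plasma cells differed by label without overlap, at 196 to 202 CPM in WT and 160 to 174 CPM in PHD2cko among BMDMs, and at 4.06 to 5.53 CPM in WT medium and 12.5 to 14.5 CPM in PHD2cko medium among 3T3 fibroblasts. Single B and plasma cell markers did not all follow their sum in BMDMs. Of the 4 tested there, 1 was higher and 1 lower past the threshold, with log2 differences from -0.28 to 7.14. Igkc was at 0 in every WT BMDM library and in no BMDM library labelled PHD2cko. The fibroblast markers of the 3T3 libraries also moved with the medium, from 20827 to 22980 CPM in WT medium and from 27629 to 28533 CPM in PHD2cko medium, with 5 of 12 higher and 1 lower past the threshold. The part of these shifts in the results for the 8 genes was not tested. In 3T3 fibroblasts the 20 macrophage markers summed to 22.5 to 23.3 CPM in WT medium, with at most 1 marker at 0, and to 214 to 963 CPM in PHD2cko medium, where none was at 0. Relative to BMDMs this was at most 0.0517% in WT medium, and 2.38, 0.528 and 2.13% in replicates 1, 2 and 3 in PHD2cko medium. All 20 markers were higher in PHD2cko medium past the threshold, and subtraction of this share from the 3T3 libraries changed no call of the 8 genes. Replicate 1 in WT medium stood apart from replicates 2 and 3: the chi-square per degree of freedom of its counts against theirs was 24.8 and 26.9, against 2.35 between replicates 2 and 3 and at most 8.42 within the other groups.

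Egln1, the gene labelled as deleted, was measured first. Its locus lies on the minus strand of chromosome 8 (GRCm38, chr8:124908587-124949324, ENSMUSG00000031987.6), with 1 annotated transcript of 5 exons. Promoters of the 3 members with the main differences are shown so that the HIF core letters can be located in them. Each is a RefSeq window on GRCm38.p6, 250 bases before to 50 after the start that RefSeq gives, printed 5′ to 3′ on the gene's strand, and capitals mark ACGTG or GCGTG on either strand (written CACGTG where both strands overlap in 1 palindrome). RefSeq starts need not be those of the GENCODE loci printed with each gene, and the Hif1a window lies inside the Hif1a locus, downstream of the start printed for it.
Egln1, chr8:124949205-124949504, minus strand: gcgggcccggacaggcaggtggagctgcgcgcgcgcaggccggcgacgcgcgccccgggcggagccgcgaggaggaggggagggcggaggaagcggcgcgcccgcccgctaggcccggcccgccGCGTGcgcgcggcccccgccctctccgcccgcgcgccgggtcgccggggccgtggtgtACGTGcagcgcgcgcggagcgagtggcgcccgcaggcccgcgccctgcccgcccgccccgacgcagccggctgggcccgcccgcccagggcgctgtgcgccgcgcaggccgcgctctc
Egln3, chr12:54203825-54204124, minus strand: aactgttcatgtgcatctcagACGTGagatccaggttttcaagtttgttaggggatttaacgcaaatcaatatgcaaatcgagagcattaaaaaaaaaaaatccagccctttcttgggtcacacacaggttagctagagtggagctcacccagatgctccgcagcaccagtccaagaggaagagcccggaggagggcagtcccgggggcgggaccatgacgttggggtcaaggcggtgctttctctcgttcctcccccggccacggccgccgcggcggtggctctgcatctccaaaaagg
Hif1a, chr12:73907617-73907916, plus strand: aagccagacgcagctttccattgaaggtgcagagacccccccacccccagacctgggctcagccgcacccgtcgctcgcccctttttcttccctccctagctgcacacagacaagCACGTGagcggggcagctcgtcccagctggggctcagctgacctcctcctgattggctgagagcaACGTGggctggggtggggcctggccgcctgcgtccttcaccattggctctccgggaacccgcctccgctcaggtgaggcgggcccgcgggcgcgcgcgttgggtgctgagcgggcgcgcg

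The Egln1 window held a GCGTG that began 126 bases before the start and an ACGTG that began 68 bases before it, in sequence of 86.0% G and C. The Egln3 window held a single ACGTG, 229 bases before the start, and the Hif1a window held 3 matches, of which 2 overlap on opposite strands in the CACGTG at 135 bases before the start and the third lies 70 bases before it. Of the other members with a window, Egln2 had 2 windows with 1 and 6 matches, Arnt had 1 match, and Vhl and Hif1an had 0. These letters are common: 43.8% of 32851 mouse windows of the same length held at least 1 of them, with ACGTG in 19.6%, GCGTG in 32.4% and CACGTG in 7.15%. A match is a description of the letters and was not tested as a binding site.

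Egln1 mRNA was not lower in the macrophages labelled PHD2cko. The WT libraries held 860, 904 and 913 Egln1 counts, and those labelled PHD2cko held 1134, 1000 and 1364, each in the order of replicates 1 to 3 that is used throughout. Scaled by library size and by TMM, the trimmed mean of log ratios of edgeR, these were 55.8, 54.7 and 55.5 CPM in WT and 68.8, 68.3 and 71.6 CPM in the libraries labelled PHD2cko. Every library labelled PHD2cko lay above every WT library. The log2 fold change was 0.33 (standard error 0.0527, 95% interval 0.22 to 0.44, adjusted p = 0.00203). This and every adjusted p for a gene come from the quasi-likelihood test of edgeR, adjusted by Benjamini-Hochberg over all genes tested. The table has 1 value per gene and none per exon, so RNA that lacks a deleted exon would still be counted, and the label could be checked neither for nor against a deletion with these values. The study made its own comparison of PHD2 mRNA between PHD2cko and control BMDMs to check the knockdown, and its values are not used here. PHD2cko therefore names the label of a library here.

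Egln3, which encodes PHD3, had the largest label difference of the 8 genes in BMDMs. It lies on the minus strand of chromosome 12 (chr12:54178981-54203860, ENSMUSG00000035105.5). Its counts in BMDMs were 65, 76 and 68 in WT and 266, 244 and 334 in PHD2cko, or 4.22, 4.6 and 4.14 CPM against 16.1, 16.7 and 17.5 CPM. The groups were far apart, with the lowest PHD2cko library above 3 times the highest WT library. Egln3 rose 3.88-fold in PHD2cko (log2 fold change 1.96, standard error 0.100, adjusted p = 1.8e-07), with the rank 9 by p among the 14285 genes. In bulk libraries, more cells that express a gene and more RNA per cell cannot be told apart. Egln2, which encodes PHD1 (chr7:27158658-27166802, minus strand), was at 48.2, 50.1 and 50.7 CPM in WT and 51.8, 54.0 and 53.2 CPM in PHD2cko. Although these groups did not overlap, the log2 difference of 0.09 did not pass the test (95% interval -0.08 to 0.27, adjusted p = 0.628).

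Hif1a, which encodes the HIF1α subunit, went the other way in macrophages. It lies on the plus strand of chromosome 12 (chr12:73901375-73947530, ENSMUSG00000021109.13). It shares 6.72% of its 31-base words with other genes, namely Gm15283 on the opposite strand and Gm49321, a protein-coding gene on the same strand. How many of its counts could belong to these genes was not examined, and the share of words does not bound it. Its counts were 1766, 1835 and 1860 in WT and 1613, 1429 and 1834 in PHD2cko, or 115, 111 and 113 CPM against 97.9, 97.6 and 96.3 CPM. Every PHD2cko library lay below every WT library, and Hif1a fell by 0.22 on the log2 scale (standard error 0.0416, 95% interval -0.31 to -0.13, adjusted p = 0.00706). Epas1, which encodes HIF2α (chr17:86753700-86833410, plus strand), was low in macrophages, at 7.14, 7.87 and 5.78 CPM in WT and 7.53, 7.04 and 7.51 CPM in PHD2cko. Its groups overlapped (log2 difference 0.09, 95% interval -0.24 to 0.42, adjusted p = 0.847).

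The shared partner and the 2 other regulators did not pass the test in macrophages. Arnt (chr3:95434388-95497240, plus strand) was at 94.8, 92.4 and 90.2 CPM in WT and 86.0, 83.0 and 85.1 CPM in PHD2cko, with all PHD2cko libraries lower and a log2 difference of -0.13 (95% interval -0.26 to 0.01, adjusted p = 0.311). With the BMDM libraries fitted alone, Arnt passed at an adjusted p of 0.0192, in a fit that called 17.6% of all genes. Vhl, the substrate-binding subunit of the ubiquitin ligase (chr6:113623959-113631633, plus strand), ranged from 28.1 to 31.6 CPM in WT and from 26.8 to 29.0 CPM in PHD2cko, with a log2 difference of -0.09 (95% interval -0.25 to 0.07, adjusted p = 0.615). Hif1an, whose product FIH hydroxylates an asparagine of HIFα and so hinders its binding of coactivators (chr19:44562850-44576274, plus strand), ranged from 62.7 to 67.3 CPM in WT and from 60.6 to 64.8 CPM in PHD2cko, with a log2 difference of -0.03 (95% interval -0.18 to 0.12, adjusted p = 0.905).

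In macrophages, then, 3 of the 8 genes passed the threshold, beside 6.73% of all genes tested. Egln1 and Egln3 were higher, where 3.38% of all genes were, and Hif1a was lower, where 3.35% were. The groups did not overlap for 5 of the 8, Egln1, Egln2, Egln3, Hif1a and Arnt, beside 31.9% of all genes. The calls of Egln1, Egln3 and Hif1a were retained in 7 of 7 alternative analyses and with each of the 6 BMDM libraries left out.

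**Figure D1:**
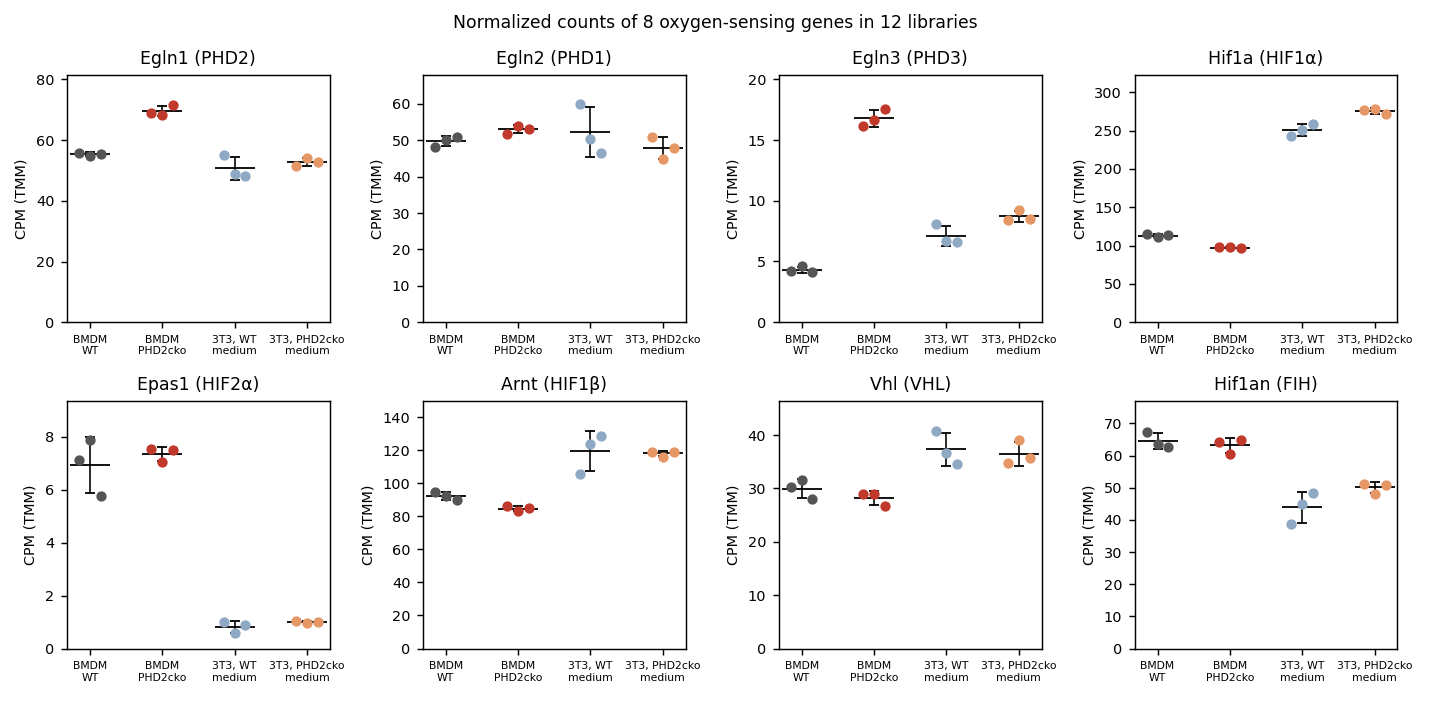
CPM after TMM normalization (y axis, from 0) of the 8 genes in the 12 libraries, by group (x axis), with replicates 1 to 3 from left to right as points, the mean as a horizontal line and the SD as error bars. Egln3 stood at 16.1 to 17.5 CPM in BMDMs labelled PHD2cko and at no more than 9.26 CPM elsewhere, and Epas1 stood at no more than 1.03 CPM in 3T3 fibroblasts.

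In 3T3 fibroblasts, which do not carry the macrophage genotype and were compared by the medium they received, 1 gene passed the threshold. Hif1a counts were 4769, 6908 and 4885 in WT medium and 5388, 4812 and 5604 in PHD2cko medium, or 243, 251 and 258 CPM against 277, 278 and 271 CPM. All libraries in PHD2cko medium lay above all in WT medium, and Hif1a rose 1.10-fold (log2 fold change 0.14, standard error 0.0399, 95% interval 0.05 to 0.22, adjusted p = 0.0354). This call was lost in 3 of 8 alternative analyses, among them the 3T3 libraries fitted alone (adjusted p = 0.134) and no filter beyond 1 count (adjusted p = 0.108), and in 4 of 6 fits that left out a library, with adjusted p up to 0.104. After the macrophage share was subtracted, which removed 36.5, 7.26 and 34.8 of the counts in PHD2cko medium, the log2 difference kept its direction and its call.

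Egln3 counts in 3T3 fibroblasts were 159, 184 and 125 in WT medium and 164, 160 and 176 in PHD2cko medium, or 8.09, 6.67 and 6.61 CPM against 8.43, 9.26 and 8.52 CPM. The groups did not overlap, although replicate 1 in WT medium came close to those in PHD2cko medium. The log2 difference of 0.30 narrowly missed the threshold (standard error 0.0943, 95% interval 0.09 to 0.50, adjusted p = 0.0518). It passed in 3 of 8 alternative analyses, with adjusted p of 0.0458 under DESeq2's size factors, 0.0449 under limma-voom and 0.0422 when at least 10 counts were required in every library. Without replicate 1 in WT medium, the difference was 0.41 (adjusted p = 0.00518). Subtraction of the macrophage share removed only 6.30, 1.25 and 6.01 Egln3 counts.

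Egln1 was at 54.9, 48.8 and 48.2 CPM in WT medium and 51.5, 54.0 and 52.8 CPM in PHD2cko medium. These groups overlapped through replicate 1 in WT medium (log2 difference 0.06, 95% interval -0.05 to 0.17, adjusted p = 0.492), and without that library the difference was 0.14 (adjusted p = 0.0176). Egln2 was at 60.0, 50.3 and 46.5 CPM against 50.8, 44.8 and 47.8 CPM (log2 difference -0.13, 95% interval -0.30 to 0.05, adjusted p = 0.323), which became 0.00098 without the same library. Hif1an, at 38.7, 44.8 and 48.3 CPM against 51.2, 48.1 and 50.9 CPM, overlapped narrowly and did not pass (log2 difference 0.19, 95% interval 0.04 to 0.34, adjusted p = 0.0896), but passed without replicate 3 in WT medium (adjusted p = 0.0256). Leaving out 1 library in WT medium thus changed the call of Egln1 and Egln3 (replicate 1) and of Hif1an (replicate 3), and ended that of Hif1a (replicate 2, adjusted p = 0.0776).

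Epas1 was low in fibroblasts, with counts of 20, 16 and 17 in WT medium and 20, 17 and 21 in PHD2cko medium, and its log2 difference of 0.32 had a wide interval (-0.21 to 0.84, adjusted p = 0.434). It ran from 0.07 to 0.51 with a library left out and from 0.17 to 0.36 over the alternatives. Arnt was at 106, 124 and 129 CPM against 119, 116 and 119 CPM (log2 difference -0.02, 95% interval -0.15 to 0.12, adjusted p = 0.894). Vhl was at 40.8, 36.7 and 34.6 CPM against 34.7, 39.1 and 35.8 CPM (log2 difference -0.03, 95% interval -0.19 to 0.12, adjusted p = 0.798). In all, 1 of the 8 genes passed the threshold in 3T3 fibroblasts, beside 15.7% of all genes tested (8.93% higher and 6.75% lower), and the groups did not overlap for 2 of the 8, beside 31.9% of all genes. The share of the members called was thus close to the background.

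**Figure D2:**
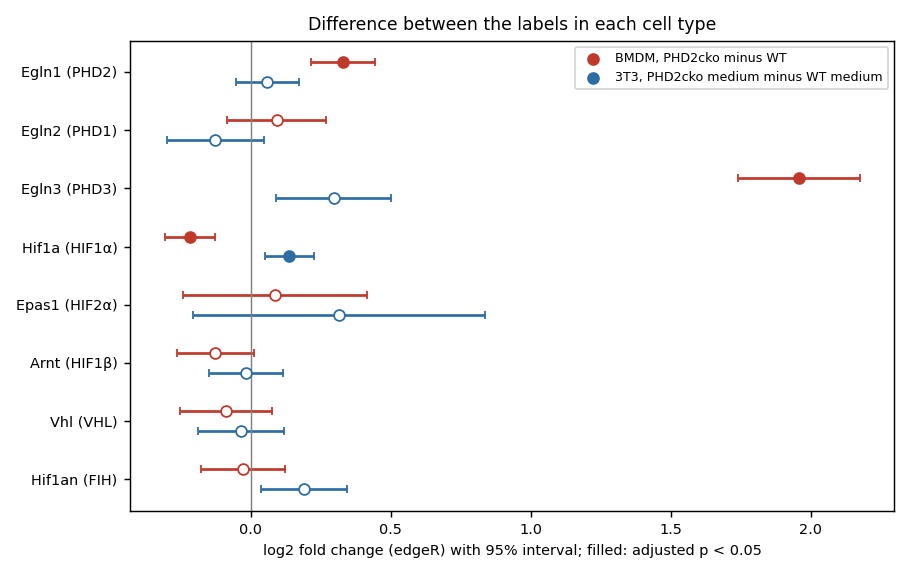
Log2 fold change from edgeR (x axis) between the labels in BMDMs (red) and in 3T3 fibroblasts (blue) for the 8 genes, with 95% intervals as bars and filled points where the adjusted p was under 0.05. Egln3 differed by 1.96 in BMDMs and by 0.30 in 3T3 fibroblasts, and Hif1a by -0.22 and 0.14.

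The label differences of 3 genes were not the same in both cell types, as tested by the difference between the label effects within a single fit. For Egln3 the difference in 3T3 fibroblasts was smaller than in BMDMs by 1.66 on the log2 scale (3T3 minus BMDM -1.66, standard error 0.139, adjusted p = 3.0e-05). For Hif1a the effects had opposite signs and differed by 0.35 (standard error 0.0577, adjusted p = 0.00145). For Egln1 they differed by -0.27 (standard error 0.0743, adjusted p = 0.0319), a call that was lost with no filter beyond 1 count (adjusted p = 0.0640) and in 8 of 12 fits that left out a library. These 3 of 8 stand beside 12.3% of all genes tested. The remaining 5 did not pass, with adjusted p of 0.188 for Hif1an, 0.255 for Egln2, 0.487 for Arnt, 0.678 for Epas1 and 0.809 for Vhl.

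Levels of different genes were compared only per length, as CPM per kilobase of merged exons. In BMDMs labelled WT, Hif1a was the most abundant transcript of the 8 (19.2 CPM per kb), followed by Egln2 (17.7), Egln1 (15.4), Arnt (11.5), Vhl (10.0), Hif1an (9.77), Egln3 (1.62) and Epas1 (1.24), and of the neighbours in this order only Vhl and Hif1an overlapped. In BMDMs labelled PHD2cko, Egln1 (19.4 CPM per kb) and Egln2 (18.9), which overlapped, stood above Hif1a (16.5) on this length, and Egln3 was at 6.30. In 3T3 fibroblasts Hif1a was far ahead, at 42.5 CPM per kb in WT medium and 46.7 in PHD2cko medium, and Egln2 came next at 18.7 and 17.1. Arnt and Egln1 followed and overlapped in both media, at 14.9 and 14.1 CPM per kb in WT medium and 14.7 each in PHD2cko medium. Vhl (12.5 CPM per kb in WT medium, overlapping Egln1, and 12.2 in PHD2cko medium), Hif1an (6.65 and 7.58), Egln3 (2.68 and 3.28) and Epas1 (0.149 and 0.181) came last. The order depends on the length assigned to each gene. With the longest transcript in place of merged exons, Arnt stood above Egln1 in WT BMDMs (21.4 against 15.4 CPM per kb), and Hif1a (23.9) overlapped Egln2 (23.6). In BMDMs labelled PHD2cko, Egln2 (25.2 CPM per kb) then came first and Egln1 (19.4) stood below Hif1a (20.6), so that the order of Egln1 and Hif1a turned, and Egln1 overlapped Arnt (19.6). In 3T3 fibroblasts Arnt then came second, overlapping Egln2 in WT medium (27.6 and 24.8 CPM per kb) and above it in PHD2cko medium (27.3 and 22.7).

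**Figure D3:**
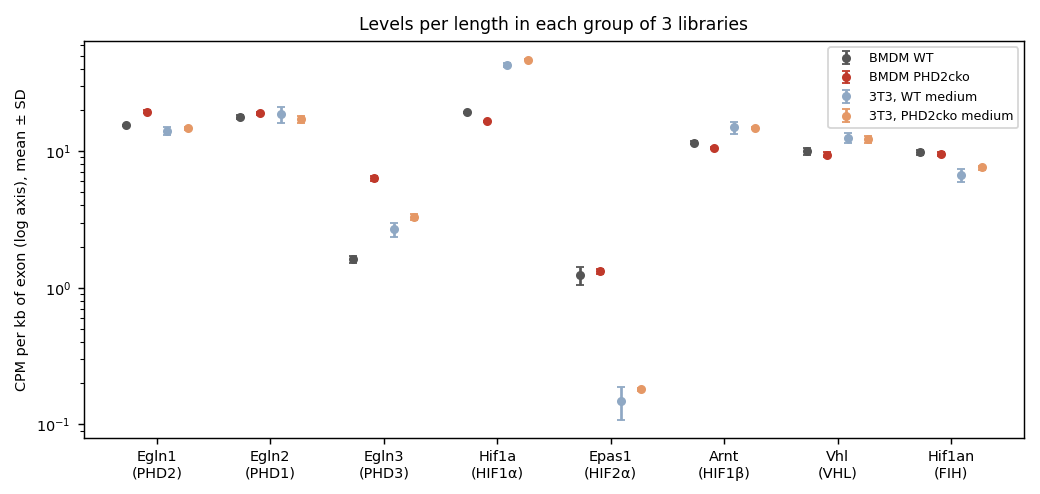
Mean CPM per kilobase of merged exons (log y axis) of the 8 genes (x axis) in each group of 3 libraries, with SD as error bars. Hif1a in 3T3 fibroblasts (42.5 and 46.7) is the highest value and Epas1 in 3T3 fibroblasts (0.149 and 0.181) the lowest.

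The 3 hydroxylase transcripts together amounted to 34.8 ± 0.411 CPM per kb in WT BMDMs and 44.6 ± 0.894 in BMDMs labelled PHD2cko, and to 35.4 ± 3.81 and 35.0 ± 0.562 in 3T3 fibroblasts in WT and PHD2cko medium (SD, n = 3 each). The share of Egln3 in this sum was 4.67 ± 0.271% in WT BMDMs and 14.1 ± 0.308% in BMDMs labelled PHD2cko, while that of Egln2 was 51.0 ± 0.786% and 42.4 ± 0.791%. The share of Egln1 was similar under both labels, at 44.3 ± 0.835% and 43.4 ± 0.666%, and its small difference turned sign with the longest transcript as the length. The mean ratio of the summed hydroxylase level to Hif1a, per length, was 1.82 in WT BMDMs and 2.70 in BMDMs labelled PHD2cko. In 3T3 fibroblasts the Egln3 share was 7.55 ± 0.159% in WT medium and 9.37 ± 0.623% in PHD2cko medium, and the Egln2 share 52.6 ± 1.40% and 48.7 ± 2.27%. The libraries of the labels did not overlap for the Egln2 and Egln3 shares in either cell type, nor for the Hif1a share of the HIFα sum in BMDMs, which was 93.9 ± 0.924% in WT and 92.6 ± 0.284% in PHD2cko. With 3 libraries against 3, the exact two-sided permutation test cannot go below p = 0.1, which each of these reached (0.167 after adjustment over 10 tests).

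**Figure D4:**
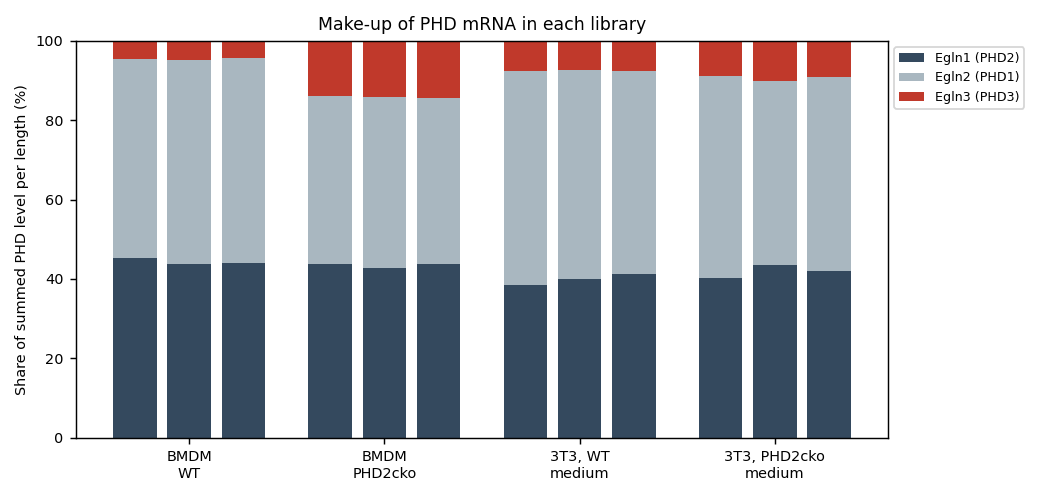
Share (y axis, percent) of Egln1, Egln2 and Egln3 in their summed CPM per kilobase, as 1 stacked bar per library, with replicates 1 to 3 from left to right in each group. The Egln3 segment averaged 14.1% in BMDMs labelled PHD2cko and 4.67% in WT BMDMs.

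The cell types themselves differed in 7 of the 8 genes, beside 85.3% of all genes tested, and the groups did not overlap for 6 of the 8, beside 85.1% of all genes, so the count is close to the background and the sizes carry the description. WT BMDMs were compared with 3T3 fibroblasts in WT medium, and cell type cannot be told apart from culture, time point and line. Epas1 was 8.49-fold higher in BMDMs (log2 difference 3.09, standard error 0.191, adjusted p = 3.6e-09), at 5.78 to 7.87 CPM against 0.580 to 1.02 CPM. Hif1a was lower in BMDMs by 1.15 on the log2 scale (log2 difference -1.15, adjusted p = 9.9e-12). Smaller differences passed for Hif1an, which was higher in BMDMs (0.55, adjusted p = 6.1e-06), and for Egln3 (-0.72, adjusted p = 2.9e-05), Arnt (-0.37, adjusted p = 8.8e-05) and Vhl (-0.32, adjusted p = 0.00117), which were lower. Egln1 was higher by 0.13 with overlapping groups (adjusted p = 0.0360), a call lost in 4 of 6 alternative analyses and in 5 of 6 fits that left out a library, and Egln2 did not pass (-0.07, adjusted p = 0.411). In each direction, 3 members were higher in BMDMs, beside 40.4% of all genes, and 4 were lower, beside 44.9%.

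The genes around the core were taken from 4 hand-written lists, chosen with earlier results of these data known. The study had itself named Bnip3, Pdk1 and P4ha1 from PHD2cko BMDMs. Counts over the lists are therefore a description and not independent support. Of 17 known HIF target genes tested, 10 rose in BMDMs labelled PHD2cko and 0 fell (0 fell also by DESeq2, by limma-voom and at an unadjusted p under 0.05). Over all genes, 3.38% were higher and 3.35% lower. The median log2 difference of the list was 0.27, beside 0.00 over all genes. Ankrd37, an ankyrin repeat gene, had the largest change, from 0.454, 0.363 and 0.426 CPM in WT to 7.28, 6.35 and 6.72 CPM in PHD2cko (log2 fold change 4.01, standard error 0.193, adjusted p = 9.7e-08). Pdk1, whose kinase restrains pyruvate entry into mitochondria, was at 64.0, 59.6 and 60.4 CPM in WT and 121, 121 and 116 CPM in PHD2cko (log2 fold change 0.96). Every PHD2cko library was above every WT library for both genes. The other 8 were the glycolytic genes Pgk1 (log2 fold change 0.85) and Ldha (0.56), the mitophagy gene Bnip3 (0.85), the collagen prolyl hydroxylase P4ha1 (0.71), the glucose transporter Slc2a1 (0.46), and Mxi1 (0.33), Kdm3a (0.27) and Ndrg1 (0.26). Kdm3a lost its call in all 6 fits that left out a BMDM library and Mxi1 in 4 of them, so that 8 to 9 targets passed there. The 7 targets that did not pass in BMDMs were Vegfa, Car9, Adm, Pfkfb3, Pfkfb4, Higd1a and Ero1l. Vegfa was at 88.2, 93.3 and 88.8 CPM in WT and 82.7, 94.1 and 88.5 CPM in PHD2cko. Car9 also overlapped between the labels, while Ero1l was higher without overlap. Adm had 1 or 2 counts in every BMDM library and was kept by the filter through the 3T3 libraries.

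In 3T3 fibroblasts 4 of the 17 targets rose in PHD2cko medium and 0 fell (0 also by DESeq2, by limma-voom and at an unadjusted p under 0.05), where 8.93% of all genes were higher and 6.75% lower. The list median was 0.13, beside 0.00 over all genes. Pdk1 was at 56.0, 56.0 and 55.1 CPM in WT medium and 70.5, 73.5 and 73.4 CPM in PHD2cko medium, with no overlap (log2 fold change 0.38, standard error 0.0419, adjusted p = 1.4e-04). The others were Pfkfb3, a regulator of glycolysis (log2 fold change 0.43), Pgk1 (0.31) and Ndrg1 (0.19), which lost its call in 3 of 6 fits that left out a 3T3 library. Pfkfb3, which stood at 42.2 CPM in WT BMDMs and at 5.45 CPM in 3T3 fibroblasts in WT medium, lost its call after the macrophage share was subtracted (log2 difference 0.35, adjusted p = 0.0577), with the 3T3 libraries fitted alone (adjusted p = 0.138) and in 2 of 6 fits that left out a 3T3 library, which were those without replicate 2 in WT medium (0.34, adjusted p = 0.0891) and without replicate 1 in PHD2cko medium (0.30, adjusted p = 0.0960). The number of targets that rose was 1 with the 3T3 libraries fitted alone, 7 without replicate 1 in WT medium and 2 without replicate 2 in WT medium, and the share of all genes called higher in these fits was 4.43%, 11.9% and 7.13%. The list count and the share over all genes thus moved the same way. The label effect on 7 targets was smaller in 3T3 fibroblasts than in BMDMs by the test of the difference, where 1756 of all 14285 genes were called (12.3%) and 654 of them were lower, and the 7 include Ankrd37 (-3.62, adjusted p = 1.3e-05), Pdk1 (-0.58, adjusted p = 1.3e-04) and Pgk1 (-0.54, adjusted p = 0.00216), and that on Pfkfb3 was larger (0.51, adjusted p = 0.0288).

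Of 14 partners of the hydroxylases and of the VHL ligase, 1 changed in BMDMs and 0 in 3T3 fibroblasts, beside 6.73% and 15.7% of all genes, so the count in BMDMs was close to the background. The list medians were 0.00 and -0.07. P4htm, with 2 to 7 counts in the BMDM libraries, was kept by the filter through the 3T3 libraries. In 3T3 fibroblasts 3 of them were lower at an unadjusted p under 0.05, and 1 was lower by DESeq2 and 1 by limma-voom. Without replicate 1 in WT medium 1 of the partners was higher, beside 11.9% of all genes. The gene called in BMDMs was Siah2, a ubiquitin ligase known to act on PHD1 and PHD3. It was at 17.7, 19.6 and 19.0 CPM in WT and 12.4, 14.3 and 14.2 CPM in BMDMs labelled PHD2cko, without overlap, and fell by 0.46 on the log2 scale (standard error 0.101, adjusted p = 0.0149). This call was lost in 3 of 6 fits that left out a BMDM library. Of 12 enzymes that make or use 2-oxoglutarate, succinate or fumarate, the small molecules that feed or inhibit the hydroxylases, 0 passed in either cell type by edgeR, DESeq2 or limma-voom, with medians of 0.00 and -0.06. At an unadjusted p under 0.05, edgeR gave 1 higher and 1 lower in BMDMs and 1 lower in 3T3 fibroblasts. With the BMDM libraries fitted alone, 3 of these enzymes passed as lower, where 9.49% of all genes did, and with at least 10 counts required in every library 1 did, where 4.36% of all genes did. In 3T3 fibroblasts 1 passed as higher without replicate 1 in WT medium, where 11.9% of all genes did.

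Of 11 paralogues and cofactors of the HIF subunits, 8 were tested. In BMDMs 1 was higher and 1 lower, beside 3.38% and 3.35% of all genes, and with the BMDM libraries fitted alone 3 were higher and 2 lower, beside 8.11% and 9.49% of all genes in that fit. In 3T3 fibroblasts 0 were higher (0 also by DESeq2, by limma-voom and at an unadjusted p under 0.05) and 3 lower, beside 8.93% and 6.75% of all genes. The genes Hif3a, Cited1 and Cited4 were left out at 12 counts or fewer in every library. Ahr, the aryl hydrocarbon receptor and another partner of HIF1β, fell in both cell types, from 24.1, 24.4 and 23.7 CPM to 18, 18.5 and 20.8 CPM in BMDMs (log2 fold change -0.33, adjusted p = 0.00542) and from 35.6, 36.4 and 35.5 CPM to 27.4, 29.1 and 28.1 CPM in 3T3 fibroblasts (-0.35, adjusted p = 0.00112). Hsp90aa1, a chaperone of HIF1α, rose in BMDMs labelled PHD2cko (0.29, adjusted p = 0.0153), a call lost in 4 of 6 fits that left out a BMDM library. Cited2, which competes with HIF1α for the coactivators p300 and CBP, fell in 3T3 fibroblasts from 91.1, 81.6 and 80.7 CPM to 61.9, 66.9 and 59.0 CPM (-0.43, adjusted p = 3.8e-04). In BMDMs Cited2 was at 122, 124 and 127 CPM in WT and 131, 135 and 137 CPM in PHD2cko, higher without overlap, and did not pass (0.11, adjusted p = 0.299). The Cited2 effects differed between the cell types by -0.55 (adjusted p = 7.8e-04). Arnt2, the paralogue of Arnt, fell in PHD2cko medium (-0.35, adjusted p = 0.0286), a call lost in 4 of 6 fits that left out a 3T3 library. It was also lost with the 3T3 libraries fitted alone (-0.34, adjusted p = 0.0775). In that fit 2 genes of the list were lower, beside 2.5% of all genes. Arnt2 had 2 to 13 counts in the BMDM libraries and 1114 to 2385 counts in the 3T3 libraries.

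**Figure D5:**
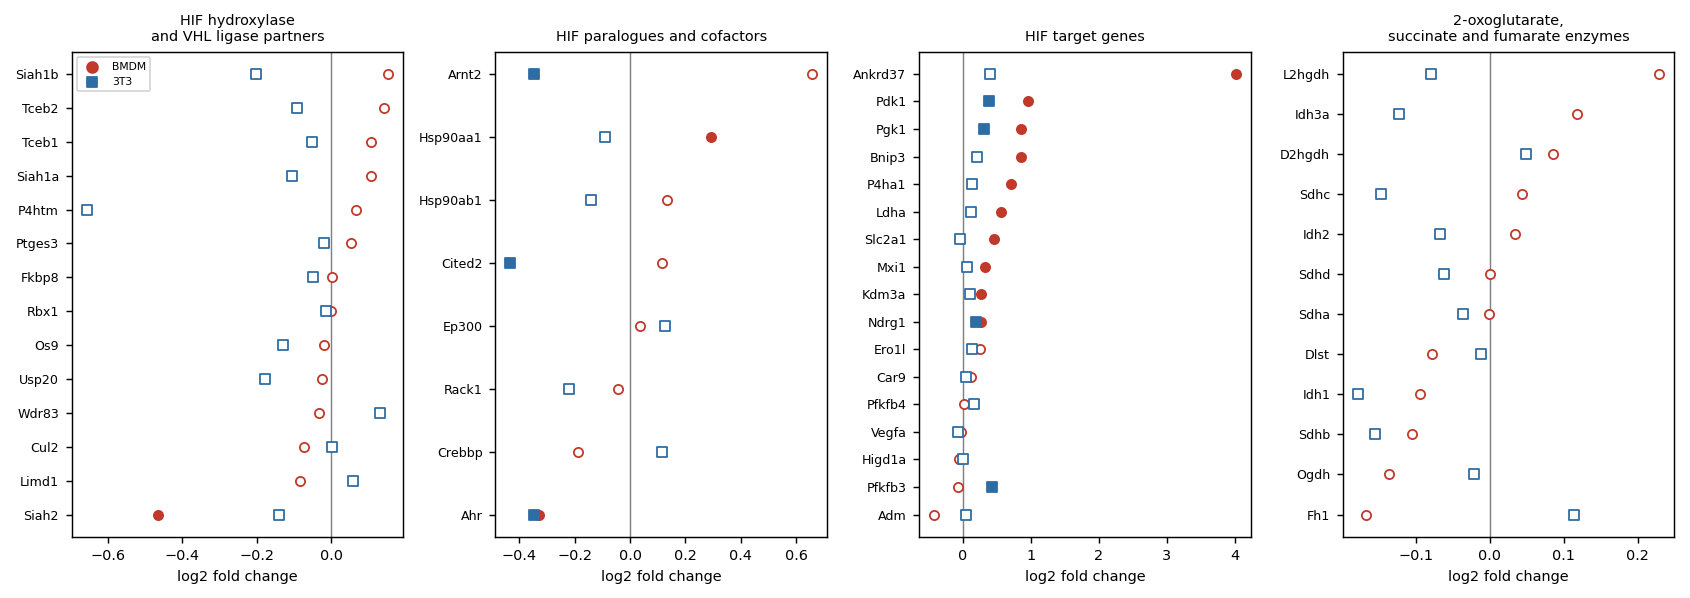
Log2 fold change between the labels (x axis) of the tested genes of 4 lists in BMDMs (red circles) and 3T3 fibroblasts (blue squares), filled where the adjusted p was under 0.05. The x axes differ in scale between panels. The lists were chosen with earlier results of these data known. In BMDMs 10 of 17 HIF targets are filled and higher, while 0 of 12 enzymes of 2-oxoglutarate, succinate and fumarate are filled in either cell type.

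Genes whose pattern over the 12 libraries was most like that of a member were found by the root mean square difference of log2 CPM, each gene centred on its own mean. For Egln3 they were S1pr1 (0.353), Pgk1 (0.389) and Pdk1 (0.390), beside a median of 0.886 over all genes, and Pgk1 and Pdk1 are targets of the list above. For Egln1 they were 1700066M21Rik (0.0515), Pkm (0.0691), which encodes pyruvate kinase, and Mdh1 (0.0748), a malate dehydrogenase, beside a median of 0.574. For Hif1a they were Rcc2 (0.0546), Tyms (0.0582) and Zcchc24 (0.0685), beside a median of 0.857, and for Epas1 Proz (0.161), Tfeb (0.165) and Sdcbp (0.170), beside 1.53. The patterns of Hif1a and Epas1 were dominated by the difference between the cell types, and these values are a description over libraries that share depth and cell type.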

How the data were processed

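RNA-seq values of 8 genes were examined in 12 libraries. The authors deposited a table of estimated counts by gene that came from kallisto and the GRCm38 build of the mouse and were not normalized. Versions are not given in the sources used here. The deposited values were already whole numbers, and 0 columns could not be mapped to a sample. Whether reads were counted by strand is not given in the sources used here, so Egln2, which overlaps Cyp2t4 on the opposite strand, and Hif1a, which overlaps Gm15283 on the opposite strand, are uncertain to that extent. Hif1a also overlaps Gm49321 on the same strand, which strand cannot resolve. A further allele that the donors of both BMDM labels shared is not reported here. The members and the gene lists were chosen with earlier results of these data known.

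edgeR 4.0.16 in R 4.3.3 was fitted to all 12 libraries in 4 groups. filterByExpr kept 14285 of 32544 genes, libraries were scaled by TMM, and two-sided quasi-likelihood tests were adjusted by Benjamini-Hochberg over all genes kept, with a threshold of 0.05. Shares per length were compared by exact permutation tests over libraries, written in Python 3.11.15 with numpy 2.4.6. Their p-values were adjusted by Benjamini-Hochberg in scipy 1.17.1. Gene models came from GENCODE on GRCm38, and promoters from RefSeq, which matched 7 of 8 members. The code was tested on simulated data. Named genes were all members, list genes past the threshold in either label comparison or left untested, and the 3 genes most like each member, of which those of Egln1, Egln3, Hif1a and Epas1 are printed. Also named were the HIF targets that did not pass in BMDMs, P4htm for its low counts, and the marker Igkc for its libraries at 0. The macrophage share of a 3T3 library was its summed marker CPM over that of BMDMs, and its subtraction removed that share of the BMDM profile.

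The alternatives were limma-voom (limma 3.58.1), DESeq2 1.42.0 with its Wald test, edgeR with the size factors of DESeq2, no filter beyond 1 count, at least 10 counts in every library, the replicate number as a block, each cell type alone, the macrophage share subtracted, the longest transcript as length, and each library left out. For the gene lists these were applied after the data had been seen. Libraries held 15516465 to 25199770 counts, and 3 libraries per group limit the precision of every difference.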

Additional observations from a re-analysis of the deposited data

Results flagged for a closer look

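The label effects of 3 genes differed between the cell types by the test of the difference in edgeR. The log2 effect in 3T3 fibroblasts minus that in BMDMs was -1.66 for Egln3 (adjusted p = 3.0e-05), 0.35 for Hif1a (adjusted p = 0.00145) and -0.27 for Egln1 (adjusted p = 0.0319). The Egln3 and Hif1a differences held their call in 7 of 7 alternatives and 12 of 12 fits that left out a library, and the Egln1 difference in 5 of 7 and 4 of 12. The BMDMs differ by genotype label and the 3T3 fibroblasts by medium label, so the 2 effects are not the same treatment.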

How the results depend on the processing

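The direction and call of Egln1, Egln3 and Hif1a in BMDMs held in all 7 alternatives and all 6 fits without a BMDM library, at log2 fold changes of 0.31 to 0.34, 1.92 to 2.01 and -0.23 to -0.21. The number of all genes called in BMDMs was 961, and was 2514 with the BMDM libraries alone and 525 to 668 with a library left out. In 3T3 fibroblasts it was 2240, and was 990 with the 3T3 libraries alone and 1278 to 2798 with a library left out. The number of members called in 3T3 fibroblasts was 1, and was 2 under DESeq2's size factors, limma-voom or at least 10 counts, 0 with no filter, with the replicate block or with 3T3 alone, and 0 to 3 with a library left out. The cause of these shifts was not tested.

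The replicate numbers did not pair the samples (mean correlation of same-numbered libraries' deviations -0.00424, highest 0.0478, over 18 pairs). With the replicate block, 815 genes were called in BMDMs, 1953 in 3T3 fibroblasts, 1541 in their difference and 12135 between cell types, and Hif1a in 3T3 fibroblasts (0.14, adjusted p = 0.0665), the Egln1 difference (-0.27, adjusted p = 0.0547) and Egln1 between cell types (0.13, adjusted p = 0.0503) lost their calls.

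Reversed signs were all in differences that had not passed. The Egln1 share in BMDMs, -0.895 points, became 0.153 with the longest transcript, and the Hif1a and Epas1 shares in 3T3 fibroblasts ran from -0.0803 to 0.0181 and from -0.0181 to 0.0803 with a library left out. Arnt in 3T3 fibroblasts became 0.0038 after subtraction of the macrophage share. With a library left out, Hif1an (-0.0484 to 0.0028) and Epas1 (-0.0286 to 0.19) in BMDMs, Egln2 (-0.20 to 0.00098), Vhl (-0.0833 to 0.049) and Arnt (-0.0734 to 0.0395) in 3T3 fibroblasts, the Epas1 difference (-0.0125 to 0.43) and Egln2 between cell types (-0.15 to 0.024) also crossed 0. At most 21 counts stood behind each Epas1 value in 3T3 fibroblasts.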
